A study of Rattus norvegicus with 6 samples.

Results

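The Notch pathway genes described here are 10 genes of rat. They include the ligand genes Dll1 and Dll3, the receptor genes Notch1 and Notch2, and Nrarp, which encodes a feedback inhibitor. The others are the Hes and Hey family genes Hes1, Hes5, Hes6, Hey1 and Hey2. All 10 are named members below. Each was taken by its symbol from the table that pairs the array's transcript clusters (the probe groups that measure 1 transcript unit) with genes. All 10 were found, each on 1 cluster with a single symbol, among 14506 genes measured this way. The cultures were primary motor neurons prepared from rat embryos of embryonic day 13.5 and grown for 2 days. They received for 2 h either 1 microM camptothecin, a plant alkaloid that holds topoisomerase 1 on cut DNA, or an equal volume of DMSO, its solvent. Each treatment had 3 Affymetrix Rat Gene 1.0 ST arrays, and the labels give no strain, sex or genotype. The samples are labelled as biological replicates, but whether they came from separate cultures is not stated, so p-values measure only the spread between these samples, which may be technical.

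Notch signalling passes between touching cells. A Delta or Jagged ligand on a cell binds a Notch receptor on its neighbour, proteases release the intracellular part of the receptor, and this part joins the DNA-binding protein RBPJ and a Mastermind coactivator at target genes. Most Hes and Hey genes are classical targets and encode bHLH repressors of proneural genes. In the embryonic spinal cord the pathway keeps neural progenitors undifferentiated, and neurons that begin to differentiate present Delta ligands to them. Hes and Hey transcripts are short-lived.

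RBPJ binds DNA with the core letters TGGGAA. The stretches upstream of the members were searched for these letters because the members include classical RBPJ targets. Only stretches with a match are shown. RefSeq windows of the rat assembly GRCr8 were held for 9 members, all but Hey1, and the 250 bases before the annotated start were searched on both strands. The core was found in 4 of the 9 windows, those of Hey2, Dll1, Hes1 and Hes5, and in 22.1% of 33469 windows of the same length over all genes. Each of the 4 held it at 2 places, as did 2.71% of all windows (2 or more). The longer form GTGGGAA, which contains the core, was in the same 4 windows and in 5.27% of all. In Hey2 (chr1:28640850-28641099, plus strand) the matches begin 175 and 60 bases before the start, and in Dll1 (chr1:64993275-64993524, minus strand) 185 and 82 bases before it. In Hes1 (chr11:84213046-84213295, minus strand) they begin 123 and 109 bases before the start, and in Hes5 (chr5:170804327-170804576, plus strand) 242 and 98 bases before it. Capitals mark the core on either strand, and each sequence is written 5′ to 3′ on the strand of its gene.
Hey2: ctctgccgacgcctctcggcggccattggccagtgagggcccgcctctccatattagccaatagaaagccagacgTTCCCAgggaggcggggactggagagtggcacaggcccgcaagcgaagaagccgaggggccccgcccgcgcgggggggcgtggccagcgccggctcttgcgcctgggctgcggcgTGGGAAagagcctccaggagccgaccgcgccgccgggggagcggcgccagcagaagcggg
Dll1: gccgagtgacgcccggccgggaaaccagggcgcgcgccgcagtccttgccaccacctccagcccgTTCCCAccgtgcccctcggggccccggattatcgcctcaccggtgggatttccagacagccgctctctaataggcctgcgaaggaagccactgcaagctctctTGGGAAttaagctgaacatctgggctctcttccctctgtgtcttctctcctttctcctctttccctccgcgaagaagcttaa
Hes1: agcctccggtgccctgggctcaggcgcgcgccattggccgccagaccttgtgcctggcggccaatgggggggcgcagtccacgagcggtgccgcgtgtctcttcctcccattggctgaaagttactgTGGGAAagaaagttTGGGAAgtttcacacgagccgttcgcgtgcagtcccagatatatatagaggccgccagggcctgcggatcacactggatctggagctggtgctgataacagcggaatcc
Hes5: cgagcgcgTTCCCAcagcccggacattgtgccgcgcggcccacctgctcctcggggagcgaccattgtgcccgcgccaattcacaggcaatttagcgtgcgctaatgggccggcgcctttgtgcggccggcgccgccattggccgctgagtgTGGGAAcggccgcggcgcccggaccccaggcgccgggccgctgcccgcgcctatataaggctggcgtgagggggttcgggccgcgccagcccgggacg
The Hes1 window carries both matches in the same orientation with 8 bases between them, whereas in the other 3 windows the matches lie on opposite strands. Of these 4 genes Hey2 and Dll1 passed the test described below and Hes1 and Hes5 did not. Hes6, which passed, had no match in its window. A match describes letters in the window and is not evidence of binding.

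The values are log2 expression values, 1 per cluster and array, and a difference of 1 is a doubling. The camptothecin arrays had medians of 6.31 to 6.33, the DMSO arrays of 6.22 to 6.28, and the median change of all genes was 0.06. Arrays of the same treatment correlated at 0.992 to 0.995 across clusters (Pearson's r) and arrays of different treatments at 0.983 to 0.985. The number of arrays limits the precision. Changes are camptothecin minus DMSO from limma, with its standard error (SE), n = 3 per treatment. "Rose" and "fell" are used for genes with an adjusted p under 0.05, adjusted by Benjamini-Hochberg over all 29214 clusters.

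Of the 10 members 4 rose (Hey2, Hey1, Hes6 and Dll1) and 0 fell by limma, where over all genes 11.3% rose and 9.35% fell. At an unadjusted p under 0.05 the counts were 6 higher and 2 lower, beside 22.2% and 13.3% of all genes. With limma treat against 1.2-fold 0 members were called in either direction, and other scalings or sets of clusters called up to 2 lower. The median change of the members was 0.21. In 8 members every camptothecin value lay above every DMSO value, a pattern shown by 27.1% of all genes, and in the other 2, the receptors, every camptothecin value lay below, as in 15.5% of all genes. No member had overlapping groups, although 6 did not pass the test, and an exact permutation test of 3 arrays against 3 cannot go below p = 0.1 (two-sided). In bulk cultures fewer cells of a type and less RNA per cell cannot be told apart.

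**Figure D1:**
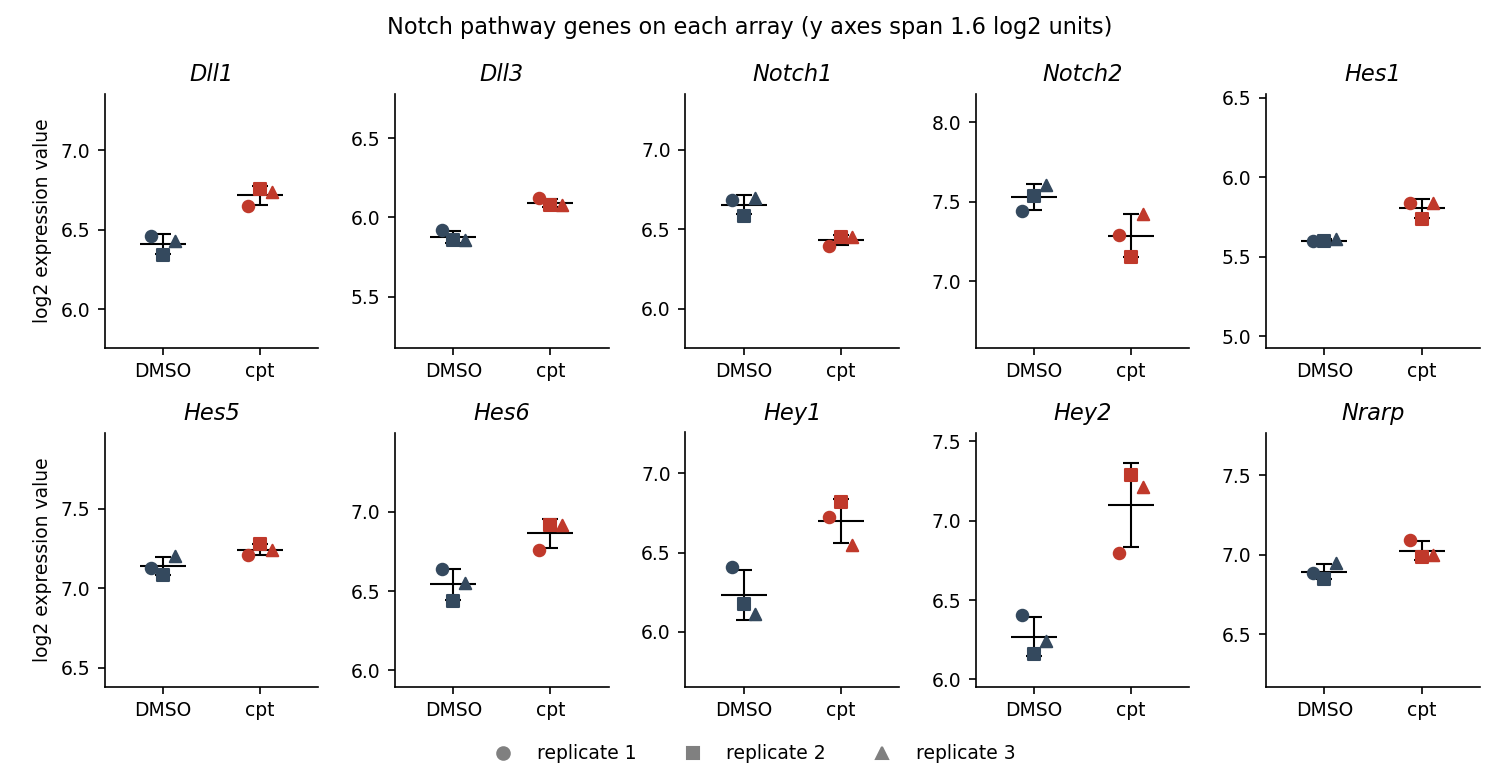
Log2 expression value of each member on the 3 DMSO and the 3 camptothecin (cpt) arrays, with a marker for each replicate number, a long bar for the mean and a short-capped bar for ± 1 SD; every panel spans the same number of log2 units. The camptothecin points lie above all DMSO points in 8 panels and below them for Notch1 and Notch2.

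The Hey genes had the largest rises of the 10. Hey2 encodes a bHLH repressor best known from the heart and blood vessels and also made in neural progenitors. Its values were 6.79, 7.29 and 7.21 on the camptothecin arrays and 6.41, 6.16 and 6.24 on the DMSO arrays. Camptothecin replicate 1 was the lowest of its group and DMSO replicate 1 the highest of its own, and the groups were 0.39 apart at their nearest values. Hey2 rose 1.77-fold (log2 change 0.83, SE 0.14, limma adjusted p = 0.00890). A change as high or higher was found in few genes, since 99.4% of all genes had a lower one. The call held with each array left out in turn (limma adjusted p from 0.00279 without camptothecin replicate 1 to 0.0378 without DMSO replicate 2). It was lost when the change was tested against 1.2-fold instead of 0 (limma treat, adjusted p = 0.0588).

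Hey1, the close relative of Hey2, measured 6.72, 6.82 and 6.55 with camptothecin and 6.41, 6.17 and 6.11 with DMSO. The groups were 0.14 apart, with camptothecin replicate 3 nearest to the controls. Hey1 rose 1.38-fold (0.47, SE 0.11, limma adjusted p = 0.0273). Its call rested on single arrays: the adjusted p was 0.0674 without camptothecin replicate 1, 0.0725 without camptothecin replicate 2, 0.0917 without DMSO replicate 2 and 0.0884 without DMSO replicate 3. It held without camptothecin replicate 3 (0.0343) and without DMSO replicate 1 (0.0279). Heyl, the remaining gene of that family, named after its value was seen, was dim (its mean lay below the median of all cluster means) and its change of 0.17 did not pass (adjusted p = 0.256).

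The Hes genes had smaller changes. Hes6 differs from the other Hes proteins in that it promotes neuronal differentiation and inhibits HES1. It measured 6.76, 6.92 and 6.92 with camptothecin and 6.64, 6.44 and 6.55 with DMSO, and it rose 1.25-fold (0.32, SE 0.08, limma adjusted p = 0.0393). The groups were 0.12 apart. The call held without camptothecin replicate 1 (adjusted p = 0.0389) and was lost without each of the other 5 arrays. Those values were 0.0937 without camptothecin replicate 2, 0.114 without camptothecin replicate 3, 0.0602 without DMSO replicate 1, 0.129 without DMSO replicate 2 and 0.101 without DMSO replicate 3.

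Hes1, a main effector of Notch in progenitors whose level oscillates there, measured 5.84, 5.74 and 5.84 with camptothecin and 5.597, 5.596 and 5.61 with DMSO. The 3 DMSO values were almost equal and all camptothecin values lay above them, by 0.13 at the nearest. The change of 0.20 (SE 0.06) did not pass (limma adjusted p = 0.0727), and Hes1 was dim. It passed in 3 alternatives, with array weights (adjusted p = 0.0387), with single-symbol clusters alone (0.0451) and with the clusters of each gene averaged (0.0489). In the last 2 its change was the same as deposited and p was adjusted over fewer tests. Hes5, which depends strongly on Notch in neural progenitors, measured 7.21, 7.28 and 7.24 with camptothecin and 7.13, 7.09 and 7.20 with DMSO. DMSO replicate 3 almost reached camptothecin replicate 1, and the change was 0.10 (SE 0.07, 95% interval -0.05 to 0.26, adjusted p = 0.333).

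Nrarp encodes an ankyrin-repeat protein that is induced by Notch and lowers the activity of the released receptor. It measured 7.095, 6.987 and 6.998 with camptothecin and 6.89, 6.85 and 6.95 with DMSO. Camptothecin replicate 2 lay only 0.04 above DMSO replicate 3. The change was 0.13 (SE 0.07, 95% interval -0.03 to 0.29, limma adjusted p = 0.233).

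Among the ligands, Dll1 encodes an activating Delta ligand of differentiating neurons and Dll3 a divergent Delta protein that acts mostly inside the cell on Notch in the same cell. Dll1 measured 6.65, 6.76 and 6.74 with camptothecin and 6.46, 6.34 and 6.43 with DMSO. It rose 1.24-fold (0.31, SE 0.07, limma adjusted p = 0.0262), with the groups 0.18 apart. The call held without camptothecin replicate 1 (adjusted p = 0.0376). It was lost without camptothecin replicate 2 (0.0622), camptothecin replicate 3 (0.0804), DMSO replicate 1 (0.0584), DMSO replicate 2 (0.0967) and DMSO replicate 3 (0.0733). Dll3, which was dim, measured 6.12, 6.08 and 6.08 with camptothecin and 5.92, 5.86 and 5.86 with DMSO. Its groups were 0.16 apart and tight, and its change of 0.21 (SE 0.06) lay just outside the threshold (adjusted p = 0.0564). It passed in the same 3 alternatives as Hes1 (adjusted p = 0.0448, 0.0335 and 0.0368). In the last 2 its change was again the same as deposited and p was adjusted over fewer tests.

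The receptors lay on the other side of 0. Notch1, the receptor best studied in neural progenitors, measured 6.39, 6.45 and 6.45 with camptothecin and 6.68, 6.59 and 6.70 with DMSO. All camptothecin values lay below all DMSO values, with a change of -0.22 (SE 0.07, limma adjusted p = 0.0581). Notch2, a second receptor of progenitors and glia, measured 7.29, 7.15 and 7.42 with camptothecin and 7.44, 7.54 and 7.60 with DMSO. Its groups were only 0.02 apart, between camptothecin replicate 3 and DMSO replicate 1, and the change was -0.24 (SE 0.09, adjusted p = 0.117). Neither receptor passed the test. With each array centred on its own median Notch1 passed (-0.29, adjusted p = 0.0216).

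**Figure D2:**
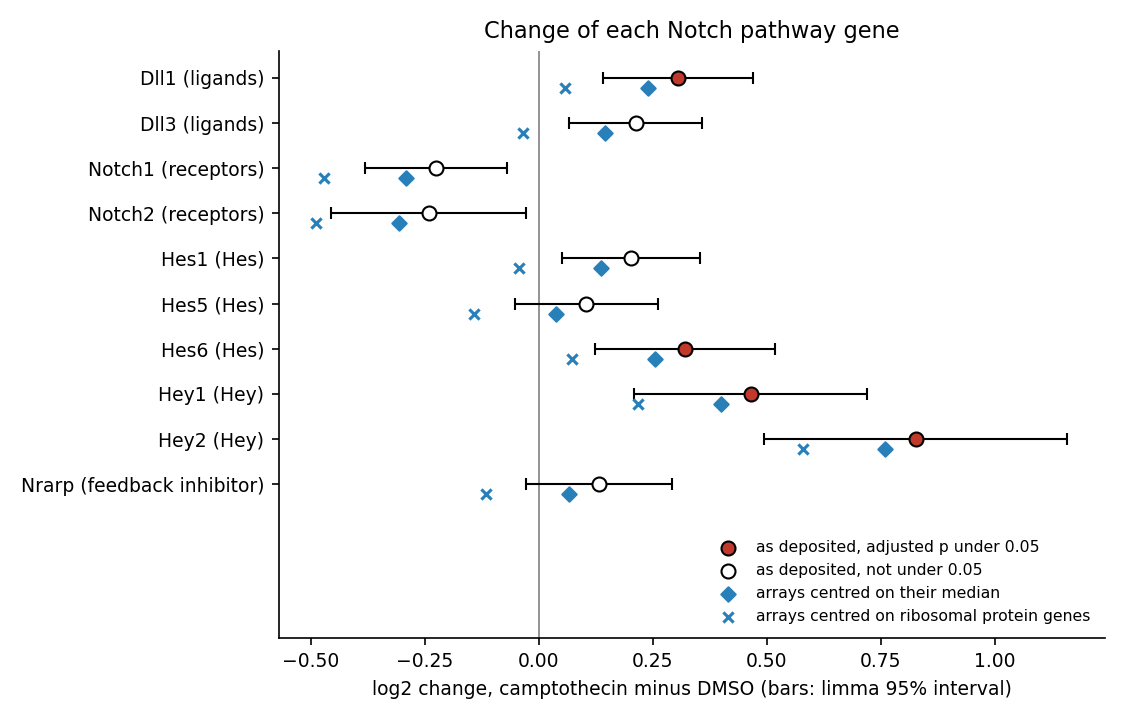
Log2 change of each member with limma's 95% interval, filled where the adjusted p was under 0.05, and below each point the change after centring every array on its median (diamond) or on its ribosomal protein genes (cross). Hey2 stays to the right of 0 by at least 0.58 under each scaling, and 4 members (Dll3, Hes1, Hes5 and Nrarp) move from above to below 0 with ribosomal centring.

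Because most of these changes were small, several calls depended on what each array was scaled to. For Dll3, Hes1, Hes5 and Nrarp the side of 0 depended on it too. Centring on the 69 ribosomal protein genes, whose own median change was 0.23, moved the median change of all genes from 0.06 to -0.19. On that scale Hey2 (0.58, limma adjusted p = 0.0191) was the 1 member that was higher past the threshold, and Hey1 (0.22), Hes6 (0.07) and Dll1 (0.06) were above 0 without passing. Dll3 (-0.03), Hes1 (-0.04), Nrarp (-0.11) and Hes5 (-0.14) were below 0 without passing. Notch1 (-0.47, adjusted p = 0.00300) and Notch2 (-0.49, adjusted p = 0.0186) were lower past the threshold. With arrays centred on their median, Hey2 again was the 1 member called higher (0.76, adjusted p = 0.0108), and Hey1 (adjusted p = 0.0512), Dll1 (0.0543) and Hes6 (0.0769) missed the threshold. The order of the members did not depend on these centrings, which shift all genes of an array alike: the Hey genes stood at the top and the receptors at the bottom.

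**Figure D3:**
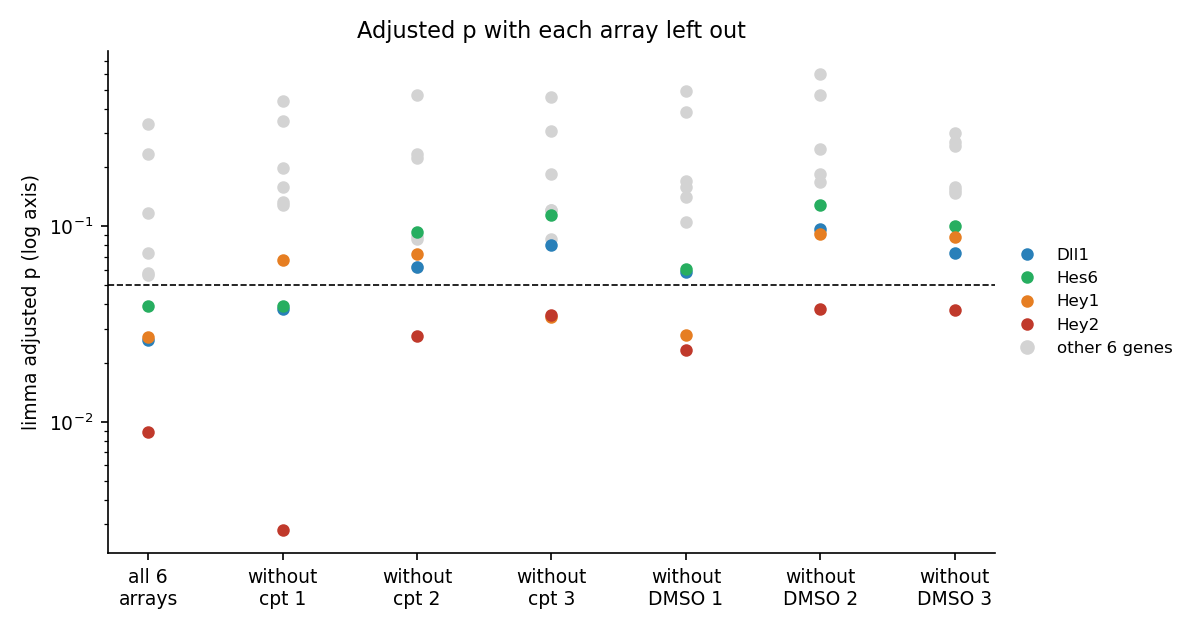
Adjusted p of each member from limma with all 6 arrays and with each array left out in turn (cpt, camptothecin), on a log axis with the 0.05 threshold as a dashed line. The Hey2 points lie under the line in every column, while those of Hey1, Hes6 and Dll1 cross it.

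The members differ in length along the genome. By the GRCr8 annotation the 8 members above 0 span 1.97 to 10.1 kb, and Notch1 and Notch2 span 45.6 and 133 kb. Among all genes under 10 kb, which include Dll1, Dll3, Hes1, Hes5, Hes6, Hey1 and Nrarp, 15.3% rose and 1.21% fell, with a median change of 0.10, and 3 of those 7 members rose. In the range of 10 to 30 kb, where Hey2 lies near the lower edge, 15.1% rose and the median change was 0.11. From 30 to 100 kb, the range of Notch1, the median change was 0.00 and 16.2% fell. From 100 to 300 kb, the range of Notch2, it was -0.12 and 33.3% fell. Among the 10 members the change of Hey2 lay furthest from the median of its length class and that of Hes5 nearest. The part of gene length in the members' changes was not tested.

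The rest of the pathway was read from a list of 78 genes, of which 63 were measured. There 5 rose and 9 fell, 7.94% and 14.3%, beside 11.3% and 9.35% of all genes, and the median change was 0.05. The 9 that fell span 70.8 to 417 kb and the 5 that rose 1.198 to 62.1 kb. All 9 kept a change below 0 and all 5 a change above 0 under every alternative setting tried.

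**Figure D4:**
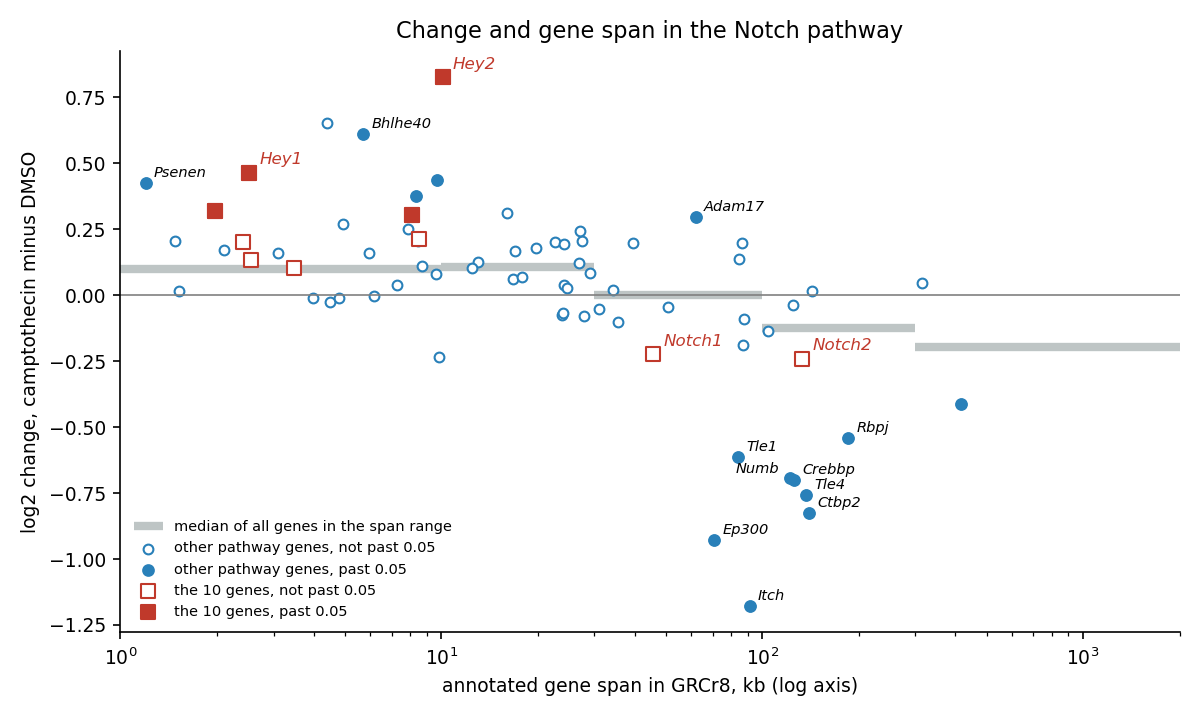
Log2 change against annotated gene span (log axis) for the 10 members (squares) and the 63 other measured pathway genes (circles), filled where the adjusted p was under 0.05, with grey bars at the median of all genes in each span range. The filled circles below 0 all lie at 70.8 kb or more, and the members above 0 lie at 10.1 kb or less.

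Among the 18 measured genes of the transcription complex and its cofactors 7 fell (38.9%) and 1 rose (5.56%), beside 9.35% and 11.3% of all genes. The 7 that fell span 70.8 to 417 kb, in length ranges where 16.2%, 33.3% and 40.3% of all genes fell. Ep300 and Crebbp, the acetyltransferases recruited by Mastermind, changed by -0.93 (SE 0.08, limma adjusted p = 0.000564) and -0.70 (SE 0.07, adjusted p = 0.00122). For Ep300 the values were 9.35, 9.31 and 9.42 with camptothecin against 10.16, 10.36 and 10.36 with DMSO, far apart. The corepressor genes Ctbp2 (-0.83), Tle4 (-0.76) and Tle1 (-0.61) also fell. Tle1 lost its call without DMSO replicate 1 or DMSO replicate 2 (adjusted p up to 0.0600). Rbpj, which encodes the DNA-binding protein of the complex and was singled out after its value was seen, measured 8.72, 9.01 and 8.74 with camptothecin and 9.36, 9.38 and 9.37 with DMSO. The change of -0.54 (SE 0.09, adjusted p = 0.00875) passed with each array left out in turn (adjusted p up to 0.0373). The coactivator gene Maml3 (-0.41) also fell, and the acetyltransferase gene Kat2a (0.38) rose; both were likewise named after their values were seen. Maml3 lost its call without DMSO replicate 2 or 3 (adjusted p up to 0.0570), and Kat2a when any array other than camptothecin replicate 1 was left out (adjusted p up to 0.125).

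Of 7 measured regulators of the receptor inside the cell, 2 fell (28.6%) and 0 rose by limma, beside 9.35% and 11.3% of all genes. At an unadjusted p under 0.05, 1 more was higher. The 2 that fell, Itch and Numb, span 91.4 and 122 kb, in length ranges where 16.2% and 33.3% of all genes fell. Itch, a ubiquitin ligase that acts on Notch, measured 7.75, 7.81 and 7.80 with camptothecin and 8.96, 8.99 and 8.95 with DMSO. Its change of -1.18 (SE 0.06, adjusted p = 6.47e-05) was larger in size than that of any member. Numb, an inhibitor of Notch that is shared unequally between daughter cells, changed by -0.69 (SE 0.09, adjusted p = 0.00364). Both calls held with each array left out in turn.

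Of 15 measured genes for processing of ligand and receptor 2 rose (13.3%) and 0 fell by limma, beside 11.3% and 9.35% of all genes. At an unadjusted p under 0.05 the counts were 5 and 0, beside 22.2% and 13.3% of all genes. Psenen, a subunit of the gamma-secretase that releases the receptor's intracellular part, rose by 0.42 (SE 0.08, adjusted p = 0.0106). Adam17, a protease that cuts at the cell surface, rose by 0.30 (SE 0.08, adjusted p = 0.0428). That of Psenen held with each array left out (adjusted p up to 0.0441). That of Adam17 was lost without DMSO replicate 2 or 3 or any camptothecin array (adjusted p up to 0.141). Both stayed above 0 with ribosomal centring without passing (0.18 and 0.05).

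Of the 8 other ligand and receptor genes 0 were called by limma, beside 11.3% of all genes that rose and 9.35% that fell. At an unadjusted p under 0.05, 1 was higher and 1 lower, beside 22.2% and 13.3% of all genes. Dll4, the Delta ligand of vessels and of some interneuron progenitors, had the largest change in size among the 8 (-0.24, SE 0.10, adjusted p = 0.144) and was dim. Among 6 measured relatives of Hes and Hey 1 rose (16.7%) and 0 fell by limma, beside 11.3% and 9.35% of all genes. Bhlhe40, a bHLH repressor also tied to the circadian clock, rose 1.53-fold (0.61, SE 0.10, adjusted p = 0.00808). Its values were 8.20, 8.24 and 8.24 with camptothecin and 7.45, 7.82 and 7.56 with DMSO, and its call held with each array left out and under each scaling (0.36 with ribosomal centring). The other 5 of this list were dim, among them Bhlhe41, whose change was larger with a wide error (0.65, SE 0.20, adjusted p = 0.0682) and which was named after its value was seen.

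Proneural genes are repressed by most Hes and Hey proteins. Of the 5 measured 0 were called by limma, beside 11.3% of all genes that rose and 9.35% that fell. At an unadjusted p under 0.05 the count was also 0, beside 22.2% and 13.3% of all genes. The largest change in size among the 5 was that of Neurog3 (0.20, SE 0.09, adjusted p = 0.159), and 4 of the 5 were dim. Among 4 measured genes reported elsewhere as responsive to Notch 1 rose (25%) and 0 fell by limma, beside 11.3% and 9.35% of all genes. It was the cyclin gene Ccnd1, with a change of 0.44 (SE 0.09, adjusted p = 0.0181). Its call was lost when camptothecin replicate 3 or the DMSO replicate 1 or 3 was left out (adjusted p up to 0.0667). With ribosomal centring its change was 0.19 (adjusted p = 0.112). The other 3, named after their values were seen, did not pass. They were Myc (0.27, limma adjusted p = 0.0535), Gfap (0.11, adjusted p = 0.540) and Fabp7 (-0.0009, adjusted p = 0.994).

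The cultures were labelled motor neurons, and markers of several cell types were measured. Of 12 measured motor neuron markers 6 were dim, among them the defining transcription factor genes Isl1 (5.77 in DMSO) and Isl2 (5.15) and the acetylcholine transporter gene Slc18a3 (6.16), where the median of all cluster means was 6.28. Brightness differs between probes for reasons other than transcript level, so these values do not show which cells were present. Most Hes, Hey and Notch genes are made mainly by progenitors and glia. Which cells of the cultures gave the members' signal cannot be told apart here. The marker counts below stand beside 11.3% of all genes that rose and 9.35% that fell. Progenitor markers rose in 1 of 8 (Msi1, 0.53) and fell in 1 (Pax6, -0.58). Their mean level per array was 8.35 to 8.61 with camptothecin and 8.42 to 8.45 with DMSO. Among them Prom1 stood apart on camptothecin replicate 3, at 9.89 against 8.62 and 8.78 on camptothecin replicates 1 and 2 and 8.68 to 9.08 with DMSO. Astrocyte markers rose in 2 of 6 (Aldoc, 0.42, and S100b, 0.34), with mean levels of 7.98 to 8.18 and 7.89 to 7.97. Msi1 lost its call without camptothecin replicate 3 or any DMSO array (adjusted p up to 0.117). Aldoc lost it without the third camptothecin array or the DMSO replicates 2 or 3 (up to 0.0583), and S100b when any array other than camptothecin replicate 1 was left out (up to 0.129). Interneuron markers fell in 5 of 10, led by Slc6a5 (-1.79) and Gad2 (-0.99), with mean levels of 7.91 to 8.02 and 8.27 to 8.35. The other 5, Lhx5 (0.26), Slc32a1 (0.23), Evx1 (0.15), Lbx1 (0.12) and Lhx1 (0.10), lay above 0 without passing. The 5 that fell span 40.1 to 91.2 kb, in a length range where 16.2% of all genes fell. These other 5 span 1.82 to 8.44 kb, in a length range where 1.21% fell. The part of gene length in the marker changes was not tested. Of the 10 interneuron markers, 1 was higher and 5 lower at an unadjusted p under 0.05. Pax2, 1 of the 5 that fell, lost its call whichever array was left out (adjusted p up to 0.135). Motor neuron markers rose in 3 of 12 (Nefh, 0.59, Nefm, 0.42, and Prph, 0.31) and fell in 1 (Chodl, -0.44), with 3 higher and 5 lower at an unadjusted p under 0.05. Their median change was -0.14, and their mean levels were 6.75 to 6.91 and 6.83 to 6.86. Prph lost its call whichever array was left out (adjusted p up to 0.125) and Chodl when any array other than camptothecin replicate 1 was left out (up to 0.139).

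Endothelial cells also make Hey2, Hey1 and Dll4. All 6 endothelial markers were dim, with mean levels of 5.46 to 5.55 with camptothecin and 5.42 to 5.52 with DMSO, and 0 were called by limma (1 higher at an unadjusted p under 0.05). Fibroblast and pericyte markers had 0 calls in 6 (1 lower unadjusted), with mean levels of 5.79 to 6.10 and 5.85 to 5.95. Among them Dcn stood apart on camptothecin replicate 3, at 7.53 against 5.83 and 5.54 on camptothecin replicates 1 and 2 and 5.91 to 6.73 with DMSO. Microglial markers had 0 calls in 5 (2 higher unadjusted), with mean levels of 6.03 to 6.09 and 5.92 to 6.03. Of 5 oligodendrocyte and Schwann cell markers Mbp fell (-0.48), with mean levels of 6.85 to 6.93 and 6.98 to 7.05. The part of cell composition in the members' changes was not tested.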

How the data were processed

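Per the labels' protocols, total RNA was turned into biotinylated cDNA from 1 microg for the Rat Gene 1.0 ST arrays, 3 per treatment. The deposited values are log2 expression values per transcript cluster. RMA and the package oligo are named in the submitters' processing notes. Which genome build, probe annotation and software versions applied was not given in the sources used here.

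All 29214 clusters were tested as deposited with limma 3.58.1 (R 4.3.3, lmFit and eBayes), camptothecin minus DMSO, two-sided, without a filter, adjusted by Benjamini-Hochberg. A gene was read from its single-symbol cluster with the highest mean (15310 such clusters, 14506 genes). Gene spans come from GRCr8, whose build may not be that of the array, matched by gene identifier for all 10 members. The fit was also run on simulated data, and no result of that run is given here.

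The members, lists and named-gene rule were chosen with earlier results of these data known. The rule names every member, up to 5 called genes per pathway list (or the 1 with the largest change where none passed) and up to 2 per marker list. Alternatives were 3 other scalings, a filter on dim clusters, a block for replicate number, trend and robust eBayes, array weights, other sets of clusters, other thresholds, and each array left out.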

Additional observations from a re-analysis of the deposited data

How the results depend on the processing

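Of the 10 members 4 were higher and 0 lower as deposited. The higher count was 1 with arrays centred on their median or on the ribosomal protein genes and at a threshold of 0.01, 2 with the replicate block, 0 with treat against 1.2-fold, and 1 to 3 with 1 array left out. It was 6 with array weights, with 1-symbol clusters only and with clusters averaged, where Dll3 and Hes1 were added. Over all genes the higher count grew there too, from 1643 to 1859, 2248 and 2210. The members' lower count was 1 (Notch1) with quantile normalization again, with median centring, with 1-symbol clusters only and with clusters of a gene averaged. It was 2 (Notch1 and Notch2) with ribosomal centring, and also 2 of the 8 members tested without dim clusters. Hey2 kept its call in 16 of 17 alternatives, Hey1 in 9, and Dll1 and Hes6 in 7 each.

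Of the 63 other pathway genes 5 were higher as deposited, and 3 with median centring and with the replicate block. The count was 1 with ribosomal centring and at 0.01, 0 with treat, and 2 to 5 with 1 array left out. It was 9 with trend and robust, and 8 with 1-symbol clusters and with the mean over clusters. Without dim clusters 10 of 45 were higher, beside 2387 of 8472 over all genes. The other pathway genes that were lower numbered 9, and 24 with ribosomal centring.

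Over all genes 1643 were higher as deposited, 913 with median centring, 361 with ribosomal centring and 892 with the replicate block. There were 441 at 0.01, 166 with treat and 665 to 1348 with 1 array left out. Larger counts were 1813 with quantile normalization again, 1859 with array weights, 2210 with clusters averaged and 2248 with 1-symbol clusters. They were 2314 with trend and robust and 2387 of 8472 genes without dim clusters. The lower ones numbered 1356, and 4236, 814 and 511 with ribosomal centring, at 0.01 and with treat. Deviations of same-numbered arrays from their group means correlated at -0.08, 0.02 and 0.08, and those of differently numbered arrays at -0.16 to 0.15. With 3 arrays per treatment these values cannot decide whether the numbers pair the samples. With the replicate block Dll1 (limma adjusted p = 0.0795) and Hes6 (0.0979) lost their calls. Fewer clusters are tested in the dim and 1-symbol settings, and averaging leaves 1 row for each of the 14506 genes. Each member has 1 cluster, so averaging and the 1-symbol setting left the members' changes as they were. For the remaining settings the cause was not tested.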
